A study of Homo sapiens with 6 samples.

Results

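This account follows 10 genes of the MALT1 and NF-κB system, taken by gene symbol from a table of 25277 gene rows: BCL10 and MALT1 of the signalling complex, the kinase gene MAP3K14, the NF-κB subunit genes NFKB1, NFKB2, RELA, RELB and REL, and the inhibitor genes NFKBIA and TNFAIP3. All 10 were present, and each averaged 1 FPKM or more. FPKM is a level scaled to transcript length and to the number of mapped fragments, so it can be compared between genes. The libraries came from Jeko and Rec-1, established lines of mantle cell lymphoma, a malignancy of B cells. Every line carried the CRISPR/Cas9 vector under tet-on control and was given doxycycline for 48 h. The control of each line held the empty vector (1 library per line), and the other libraries held NR4A1 sgRNA 1 or NR4A1 sgRNA 2, guides against the nuclear receptor gene NR4A1 (1 library per guide and line). The labels describe stable lines and do not say whether these were clones or whether the guides were grown as separate cultures, so p-values measure only the spread between these libraries.

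MALT1 is a protease and scaffold that joins BCL10 when the B-cell receptor fires, and the complex then recruits the IKK kinases. IKK marks the inhibitor IκBα, the product of NFKBIA, for destruction and so frees the classical dimers of RELA, REL and the p50 product of NFKB1. In the alternative route the kinase NIK, the product of MAP3K14, drives processing of the NFKB2 product to p52, which pairs with RELB. NF-κB in turn induces NFKBIA and TNFAIP3, whose product A20 removes ubiquitin chains that the signal needs, and NFKB2 and RELB are also known targets. Mantle cell lymphomas differ in which of the routes they lean on, and MALT1 cleaves several of the proteins named here, including BCL10, A20 and RELB.

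Several values raise questions about the labels, and every direction below rests on the labels. In Jeko the targeted gene NR4A1 had 5.99 FPKM without a guide and 3.89 and 4.44 FPKM with sgRNA 1 and 2, but it had 11.6 FPKM in the Rec-1-labelled control and 27.4 and 12.7 FPKM in those labelled Rec-1 sgRNA 1 and 2. Its mean log2 difference from the own-line control was 0.10, with a two-sided exact permutation p of 0.889 where 0.111 is the smallest that 9 arrangements allow. Across 9701 protein-coding genes that were tested, the Rec-1-labelled control correlated at 0.989 with the Jeko control and at 0.805 and 0.812 with the Rec-1-labelled sgRNA 1 and 2 libraries (a description across genes). CCND1, the cyclin gene that marks this lymphoma, ran from 442 to 815 FPKM in Jeko and the Rec-1-labelled control and was at 0.696 and 0.592 FPKM in those labelled Rec-1 sgRNA 1 and 2. SOX11, another marker of it, ran from 7.11 to 11.1 FPKM in the former and was 3.60 and 2.45 FPKM in the latter, and CD5 was at or under 0.0785 FPKM in every library. All 6 B-cell markers examined were present, summing to between 584 and 1032 FPKM. The 3 T-cell markers summed to 71.5 and 101 FPKM in the Rec-1-labelled sgRNA libraries. Of this CD3D made up 66.3 and 95.3 FPKM and CD3E 5.19 and 5.80 FPKM, with CD2 at 0.0288 FPKM and listed at 0. The 3 summed to between 0.361 and 0.993 FPKM in the other 4 libraries, with CD3E at or under 0.531 FPKM. The 2 plasma-cell markers summed to between 15.2 and 29.4 FPKM in those 4 libraries and to 2.60 and 2.81 FPKM in the Rec-1-labelled sgRNA libraries, while the myeloid and epithelial lists stayed at or under 1.97 FPKM in all 6. The part of these differences in the results below was not tested, and in bulk RNA fewer cells of a type and less RNA per cell cannot be told apart.

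Promoters are shown because several of these genes are both parts and targets of NF-κB. RefSeq (GRCh38.p14) gave the 250 bases before the start site for 9 of the 10 genes, in 13 start sites, and RELB had no entry. Both strands were searched for the κB consensus, the 10-base NF-κB motif. It was present in 5.21% of 35114 promoters of this length and in 0.64% more than once. A match stood before 6 of the 13 start sites, in 5 genes: NFKB1, NFKB2, REL, NFKBIA and TNFAIP3. These 6 are printed 5′ to 3′ on the gene's strand, with each match in capitals, followed by MALT1, which had no match, for comparison.
NFKBIA, chr14:35404750-35404999, minus strand: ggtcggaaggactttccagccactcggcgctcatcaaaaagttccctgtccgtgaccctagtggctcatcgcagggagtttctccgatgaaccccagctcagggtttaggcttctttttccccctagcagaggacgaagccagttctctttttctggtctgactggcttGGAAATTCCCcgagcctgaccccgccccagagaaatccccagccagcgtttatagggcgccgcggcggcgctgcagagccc
TNFAIP3, chr6:137867009-137867258, plus strand: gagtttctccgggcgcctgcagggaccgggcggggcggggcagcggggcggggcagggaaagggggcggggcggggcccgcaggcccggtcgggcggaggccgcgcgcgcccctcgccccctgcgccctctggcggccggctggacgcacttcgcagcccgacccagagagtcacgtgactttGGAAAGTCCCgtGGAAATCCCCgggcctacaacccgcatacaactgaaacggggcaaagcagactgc
NFKB2, chr10:102394328-102394577, plus strand: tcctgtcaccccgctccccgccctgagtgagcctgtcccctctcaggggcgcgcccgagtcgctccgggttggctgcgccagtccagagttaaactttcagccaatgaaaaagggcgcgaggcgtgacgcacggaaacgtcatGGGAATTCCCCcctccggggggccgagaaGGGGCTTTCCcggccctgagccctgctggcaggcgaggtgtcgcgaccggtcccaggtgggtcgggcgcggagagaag
NFKB2, chr10:102395455-102395704, plus strand: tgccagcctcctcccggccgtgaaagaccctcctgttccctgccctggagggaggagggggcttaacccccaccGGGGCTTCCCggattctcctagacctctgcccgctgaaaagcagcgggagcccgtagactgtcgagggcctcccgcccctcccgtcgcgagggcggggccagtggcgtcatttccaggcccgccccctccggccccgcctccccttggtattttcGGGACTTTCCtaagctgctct
NFKB1, chr4:102501109-102501358, plus strand: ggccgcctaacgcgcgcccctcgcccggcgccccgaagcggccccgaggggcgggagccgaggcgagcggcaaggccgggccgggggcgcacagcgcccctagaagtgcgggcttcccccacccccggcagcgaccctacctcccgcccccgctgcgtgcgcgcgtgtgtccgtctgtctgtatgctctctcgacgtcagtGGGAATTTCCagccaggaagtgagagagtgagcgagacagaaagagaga
REL, chr2:60881324-60881573, plus strand: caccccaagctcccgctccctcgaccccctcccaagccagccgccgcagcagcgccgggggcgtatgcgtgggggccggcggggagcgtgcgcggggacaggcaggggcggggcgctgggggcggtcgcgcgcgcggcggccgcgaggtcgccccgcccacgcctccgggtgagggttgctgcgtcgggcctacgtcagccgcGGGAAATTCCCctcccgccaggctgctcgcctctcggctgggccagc
MALT1, chr18:58671215-58671464, plus strand: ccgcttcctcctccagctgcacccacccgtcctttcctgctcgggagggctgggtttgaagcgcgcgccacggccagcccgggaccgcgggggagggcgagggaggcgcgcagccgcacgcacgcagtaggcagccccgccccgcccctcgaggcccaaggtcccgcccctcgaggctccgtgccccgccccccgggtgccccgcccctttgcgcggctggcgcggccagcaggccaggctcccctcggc
NFKBIA held GGAAATTCCC, which starts 81 bases before the start site. TNFAIP3 held GGAAAGTCCC and GGAAATCCCC, starting 67 and 55 bases before it and separated by 2 bases. The second NFKB2 start site had GGGAATTCCC and, shifted by 1 base, GGAATTCCCC as overlapping matches, and GGGGCTTTCC nearer the start. The third NFKB2 start site had GGGGCTTCCC and, starting 21 bases before it, GGGACTTTCC. NFKB1 held GGGAATTTCC and REL the overlapping GGGAAATTCC and GGAAATTCCC, 49 and 47 bases before the start. BCL10, MAP3K14, both RELA start sites, the first of NFKB2 and the second of NFKB1 had no match. A match is a description of the letters and shows neither binding nor use in these cells.

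The clearest pattern was between the Rec-1-labelled and the Jeko sgRNA libraries, a contrast called between the lines below by label only. In the Rec-1-labelled sgRNA libraries, MALT1, MAP3K14, NFKB1, NFKB2, NFKBIA and TNFAIP3 were lower than in the Jeko sgRNA libraries, REL was higher, and BCL10, RELA and RELB did not pass the test. This comparison uses neither control, and at these 10 genes the Rec-1-labelled control was between 0.815 and 1.24 times the Jeko control. With limma on log2(FPKM + 1), 1 of the 10 genes was higher and 6 were lower at an adjusted p under 0.05, in a table where 12.8% of 11400 tested genes were higher and 13% were lower, 25.9% in all. The median difference of the 10 was −1.60 on the log2 scale, against −0.03 over all tested genes. At 8 of the 10 the Rec-1-labelled and Jeko sgRNA libraries did not overlap, as at 69.9% of all tested genes.

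**Figure D1:**
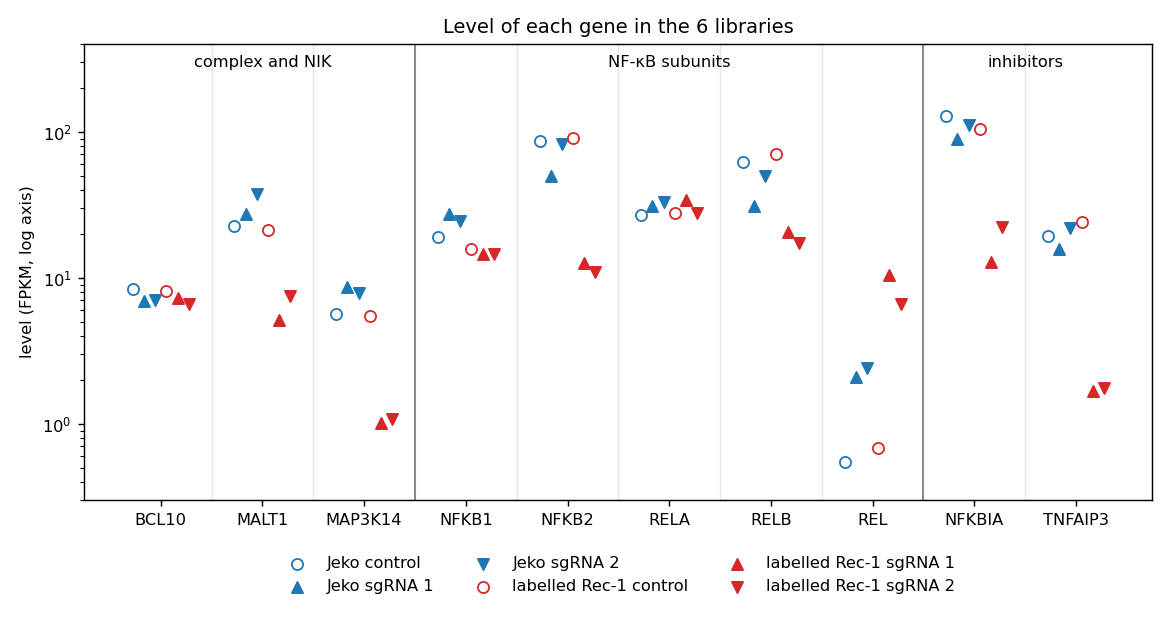
Level in FPKM (log axis) of each of the 10 genes in the 6 libraries, 1 point per library, Jeko in blue and libraries labelled Rec-1 in red, controls as open circles. The open red circle lies close to the open blue circle at every gene, while the red triangles lie far below the blue ones at MALT1, MAP3K14, NFKB2, NFKBIA and TNFAIP3 and above them at REL.

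BCL10 and MALT1, the partners of the complex, behaved differently. BCL10 (chromosome 1, 85731459 to 85742315, minus strand, GRCh37) was 8.44, 6.91 and 7.06 FPKM in the Jeko control, sgRNA 1 and sgRNA 2 libraries and 8.12, 7.31 and 6.61 FPKM in those labelled Rec-1. All 6 values lay within a narrow band and the lines overlapped. Its difference between the sgRNA libraries was −0.0045 (SE 0.15) with a 95% interval from −0.43 to 0.42, so a difference of up to about that size in either direction was within the error. MALT1 (chromosome 18, 56338697 to 56421709, plus strand) was 22.8, 27.3 and 37.4 FPKM in the 3 Jeko libraries and 21.2, 5.12 and 7.52 FPKM in those labelled Rec-1. The Rec-1-labelled sgRNA libraries stood apart below all the others. The log2 difference between the sgRNA libraries was −2.19 (SE 0.28, limma adjusted p = 0.0129), the Jeko mean being 5.12 times the Rec-1-labelled mean. MALT1 mRNA was between 2.61 and 5.29 times as high as BCL10 mRNA in 4 libraries, and 0.699 and 1.14 times in the Rec-1-labelled sgRNA 1 and 2 libraries.

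MAP3K14, the gene for NIK (chromosome 17, 43340486 to 43394395, minus strand), was 5.62, 8.66 and 7.87 FPKM in Jeko and 5.51, 1.02 and 1.08 FPKM in the libraries labelled Rec-1. It was thus near 1 FPKM in both Rec-1-labelled sgRNA libraries, with close values for the guides. The log2 difference was −2.18 (SE 0.15, limma adjusted p = 0.00302), and the Jeko mean was 7.89 times as high. The annotated antisense gene MAP3K14-AS1 overlaps it and had 2.98, 4.23 and 5.24 FPKM in Jeko and 2.70, 5.06 and 7.79 FPKM in the libraries labelled Rec-1. It was not low where MAP3K14 was low. Strand use in counting is not given in the sources used here, so reads of the pair cannot be told apart.

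Among the subunit genes NFKB2 and NFKB1 were lower and REL was higher. NFKB2 (chromosome 10, 104153867 to 104162281, plus strand) was 86.2, 50.1 and 82.7 FPKM in Jeko and 90.4, 12.7 and 10.9 FPKM in the libraries labelled Rec-1. Its log2 difference between the sgRNA libraries was −2.35 (SE 0.31, limma adjusted p = 0.0138). RELB, the partner of p52 (chromosome 19, 45504719 to 45541450, plus strand), was 62.2, 31.1 and 49.7 FPKM in Jeko and 70.5, 20.4 and 17.2 FPKM in the libraries labelled Rec-1. The groups did not overlap, but the Jeko guides differed by a ratio of 1.60. The difference of −1.03 (SE 0.29) did not pass, at a limma adjusted p of 0.0738, and did when only protein-coding genes were tested (adjusted p = 0.0368), an alternative chosen after seeing the data.

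RELA, the main activating subunit of the classical route (chromosome 11, 65421070 to 65430561, minus strand), lay within a narrow range, like BCL10. It was 26.9, 31.3 and 32.9 FPKM in Jeko and 27.7, 34.02 and 27.7 FPKM in the libraries labelled Rec-1, with a log2 difference between the sgRNA libraries of −0.06 and a 95% interval from −0.59 to 0.47. NFKB1, the p50 precursor gene (chromosome 4, 103422487 to 103538459, plus strand), was 19.2, 27.2 and 24.3 FPKM in Jeko and 15.7, 14.7 and 14.6 FPKM in the libraries labelled Rec-1. Its difference of −0.78 (SE 0.17) was the smallest that passed, at a limma adjusted p of 0.0412, and it did not pass with transcript length adjusted (adjusted p = 0.0541) or with the guide number as a block (0.0615). Both Rec-1-labelled sgRNA libraries lay below both controls at this gene, and both Jeko sgRNA libraries above them.

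REL, which encodes c-Rel, a subunit prominent in B cells, was the exception in direction (chromosome 2, 61108626 to 61158747, plus strand). It was 0.549, 2.10 and 2.40 FPKM in Jeko and 0.681, 10.5 and 6.57 FPKM in the libraries labelled Rec-1. The 4 sgRNA libraries all lay above both controls, and those labelled Rec-1 sgRNA highest. The log2 difference between the sgRNA libraries was 1.52 (SE 0.25, limma adjusted p = 0.0239), and it did not pass when every detected gene was tested (adjusted p = 0.0543).

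The feedback inhibitors were low together in the Rec-1-labelled sgRNA libraries. NFKBIA (chromosome 14, 35870285 to 35873955, minus strand) was 129, 89.0 and 111 FPKM in Jeko and 105, 12.8 and 22.5 FPKM in the libraries labelled Rec-1. It was the highest of the 10 genes in both controls and both Jeko sgRNA libraries. Its log2 difference between the sgRNA libraries was −2.48 (SE 0.33, limma adjusted p = 0.0149). TNFAIP3 (chromosome 6, 138188351 to 138204451, plus strand) was 19.5, 15.9 and 22.0 FPKM in Jeko and 24.1, 1.69 and 1.77 FPKM in the libraries labelled Rec-1. Its difference of −2.85 (SE 0.22, limma adjusted p = 0.00400) was the largest of the 10, with a Jeko mean 10.96 times the Rec-1-labelled mean. Both genes carry the κB matches printed above, as does REL, which went the other way.

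**Figure D2:**
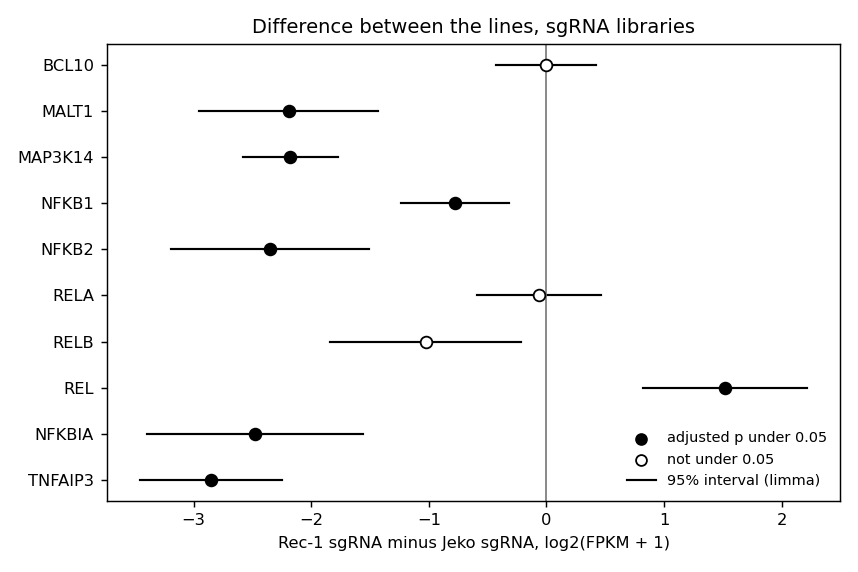
Difference of each gene between the Rec-1-labelled sgRNA libraries and the Jeko sgRNA libraries on the log2(FPKM + 1) scale, with limma's 95% interval, from 2 libraries per line. Filled points passed an adjusted p of 0.05: 6 lie left of 0 and REL, at 1.52, lies right of it.

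The spread in this test comes from the guides of each line. Leaving out any of the 4 sgRNA libraries lowered the number of genes that passed from 7 to between 1 and 3. It was 1 without Rec-1 sgRNA 1, 2 without Jeko sgRNA 2, and 3 without Jeko sgRNA 1 or without Rec-1 sgRNA 2. MAP3K14 passed in all 4 of these fits, and no gene that had passed changed sign in any of them.

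The make-up of subunit mRNA differed too, given here as shares of the summed FPKM of the 5 genes, without a test. NFKB2 held between 35.4% and 44.2% in the Jeko libraries and the Rec-1-labelled control, and 13.8% and 14.2% in those labelled Rec-1 sgRNA 1 and 2. RELA held between 13.5% and 22.1% in the first 4 and 36.8% and 35.9% in the last 2. REL held 0.282% and 0.332% in the controls, 1.48% and 1.25% in the Jeko sgRNA libraries and 11.3% and 8.53% in those labelled Rec-1 sgRNA. RELB made up between 21.9% and 34.4% throughout. The summed level of the 5 was 92.3 and 77.01 FPKM in the Rec-1-labelled sgRNA libraries and between 142 and 205 FPKM in the others. NFKBIA mRNA was between 2.84 and 4.79 times as high as RELA mRNA in the first 4 libraries and 0.375 and 0.811 times in the last 2.

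**Figure D3:**
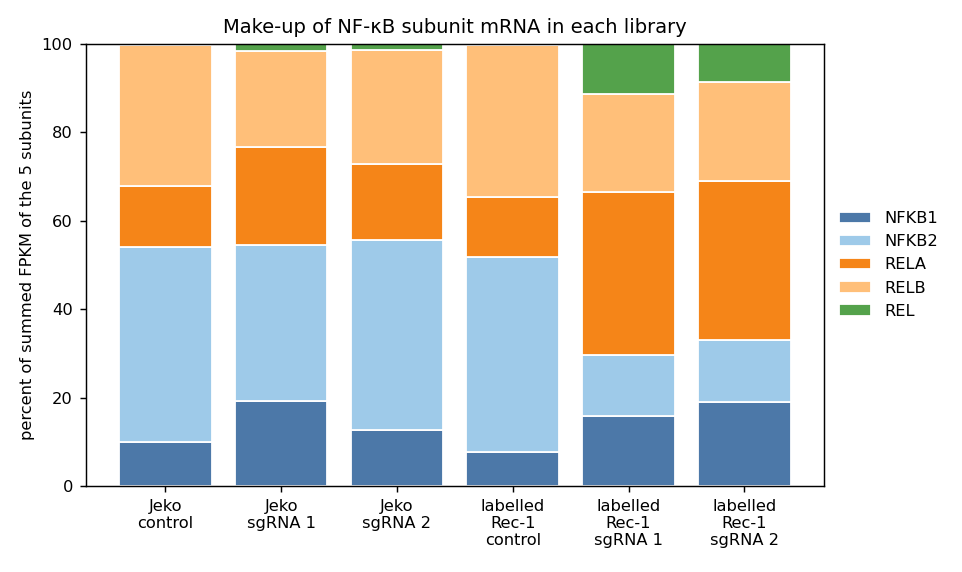
Share of each NF-κB subunit gene in the summed FPKM of the 5 (percent, stacked to 100) in each library. NFKB2 and RELB fill most of the first 4 bars, and RELA is the largest part, at 36.8% and 35.9%, of the Rec-1-labelled sgRNA libraries.

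Against its own control, no member passed in Jeko. Limma called 0 of the 10 genes there, with 0.439% of all tested genes called (0.149% higher and 0.289% lower), and 1 of the 10 had an unadjusted p under 0.05, as had 1287 of the 11400. The control is 1 library, assumed in the fit to vary like the sgRNA libraries. REL stood out in size: its sgRNA 1 and 2 levels were 382% and 437% of the control's, log2 differences of 1.00 and 1.14. It was the only member at least 2-fold higher with both guides, as were 1.89% of tested genes, and no member was 2-fold lower with both (1.15% of tested genes). Its fitted difference of 1.07 (SE 0.31, limma adjusted p = 0.397) came to 0.65 with transcript length adjusted and to 1.85 with a pseudocount of 0.1. REL has the longest annotated transcript of the 10, at 11108 nt.

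Smaller shifts in Jeko did not pass either. MALT1 was at 120% and 164% of its control with sgRNA 1 and 2, and MAP3K14 at 154% and 140%. NFKB1 was at 142% and 127% and RELA at 116% and 122%. Each of these was higher with both guides. RELB was at 49.96% and 79.8%, NFKBIA at 69.1% and 85.9%, BCL10 at 81.9% and 83.7% and NFKB2 at 58.2% and 95.9%, lower with both but for NFKB2 and RELB mainly with sgRNA 1. TNFAIP3 went to 81.6% with sgRNA 1 and to 113% with sgRNA 2. The MALT1 difference of 0.47 (SE 0.34) was 0.06 when transcript length was adjusted, its annotated transcript being 9289 nt. The same adjustment took MAP3K14 from 0.48 to 0.30, NFKB1 from 0.41 to 0.27 and NFKBIA from −0.37 to −0.08. RELB went from −0.65 to −0.50, BCL10 from −0.24 to −0.19 and NFKB2 from −0.41 to −0.40. Away from 0 went RELA, from 0.25 to 0.35, and TNFAIP3, from −0.05 to −0.26.

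The Rec-1-labelled sgRNA libraries differed from the Rec-1-labelled control at 7 of the 10 genes, 1 higher and 6 lower, where 10% and 9.11% of tested genes were higher and lower (19.2% in all). REL was higher, at 1535% and 964% of the control with sgRNA 1 and 2. NFKB2 was at 14.1% and 12.1%, NFKBIA at 12.1% and 21.4%, TNFAIP3 at 7.02% and 7.34%, MAP3K14 at 18.5% and 19.6%, MALT1 at 24.1% and 35.5% and RELB at 29.0% and 24.5%. These same 7 exceeded 2-fold with both guides, as did 11.9% of tested genes upward and 11.4% downward. The fitted differences ran from −3.20 (TNFAIP3, SE 0.27, limma adjusted p = 0.00688) to 2.47 (REL, SE 0.31, limma adjusted p = 0.0159). NFKB1 was at 93.3% and 92.6%, BCL10 at 90.1% and 81.5% and RELA at 123% and 99.97% of the control.

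All of these values rest on a control that lay close to the Jeko control. At the 10 genes the Rec-1-labelled control was between 0.815 (NFKBIA) and 1.24 (REL) times the Jeko control, so none differed by 2-fold, where 2.51% of tested genes did. Without the Rec-1-labelled control the contrast cannot be made. Leaving out an sgRNA library lowered the 7 to 1 (either Rec-1-labelled library, with REL remaining) or 3 (either Jeko library, with MAP3K14, NFKB2 and TNFAIP3 remaining). With every detected gene tested 4 of the 10 passed, and MALT1 (limma adjusted p = 0.0783), RELB (0.0691) and NFKBIA (0.0530) did not. Among genes averaging 5 FPKM or more MALT1 did not pass either (limma adjusted p = 0.0552), and MAP3K14 and REL were below that level.

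**Figure D4:**
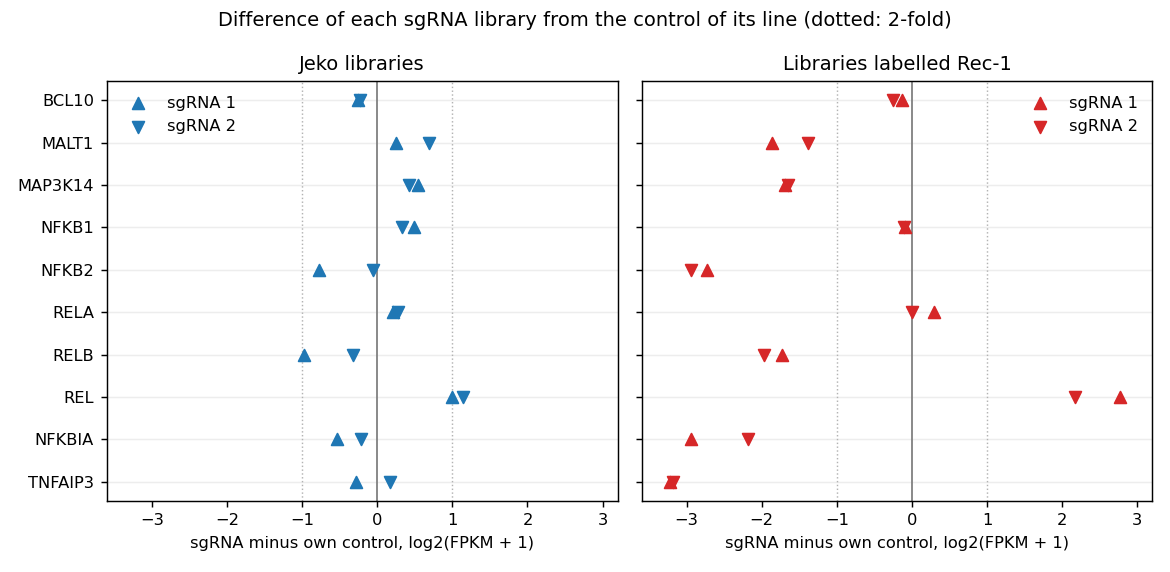
Log2(FPKM + 1) difference of each sgRNA library from the control of its line, Jeko at left and libraries labelled Rec-1 at right, 1 point per library, with dotted lines at 2-fold. In Jeko only REL reaches 1 with both guides, while on the right 6 genes lie beyond −1 and REL beyond 2.

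Over both lines together limma called 0 of the 10 genes, with 0.246% of tested genes called (0.184% higher and 0.0614% lower), and 4 of the 10 had an unadjusted p under 0.05, as had 2410 of the 11400. These 4 were NFKB2, RELB, REL and NFKBIA. Their log2 differences were −1.63 (SE 0.57), −1.25 (SE 0.35), 1.77 (SE 0.39) and −1.47 (SE 0.54), with limma adjusted p between 0.169 and 0.219. This fit takes the sgRNA effect as the same in both lines, so effects that differ between them enter its error. TNFAIP3, at −0.05 in Jeko and −3.20 in the libraries labelled Rec-1 (SE 0.27 each), was at −1.63 (SE 0.70) here. REL was higher in all 4 sgRNA libraries than in the own-line control, as were 21% of tested genes. BCL10, NFKB2, RELB and NFKBIA were lower in all 4, as were 21.1%. Without the Rec-1-labelled control the count was again 0 of 10, and the differences of MALT1 and MAP3K14 turned from −0.58 and −0.59 to 0.47 and 0.48. Without the Jeko control 7 of 10 passed, since the contrast is then that of the libraries labelled Rec-1 alone.

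The difference in the sgRNA effect between the Jeko and the Rec-1-labelled libraries passed at 2 of the 10 genes, where 6.94% of tested genes passed. These were MAP3K14 (−2.15, SE 0.25, limma adjusted p = 0.0243) and TNFAIP3 (−3.15, SE 0.38, limma adjusted p = 0.0252). Both were on the lower side, as were 3.25% of tested genes, with 3.68% on the higher side. Neither passed when any sgRNA library was left out, or when every detected gene was tested (limma adjusted p of 0.0524 and 0.0539). With the guide number as a block, MAP3K14 did not pass (limma adjusted p = 0.0593).

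The rest of the pathway was read from lists of known parts. In this contrast 12.8% of all tested genes were higher and 13% lower, 25.9% in all, and no list count was tested against these shares. Of 19 IKK kinases and upstream adaptors, all tested, 4 were higher and 2 lower in the Rec-1-labelled sgRNA libraries than in the Jeko sgRNA libraries, and the list's median difference was 0.03. PRKCB, the kinase that links the B-cell receptor to the MALT1 complex, was 1.93 to 3.04 FPKM in the Jeko sgRNA libraries and 13.5 and 17.6 FPKM in those labelled Rec-1 sgRNA (2.26, SE 0.25, limma adjusted p = 0.00941). BIRC3, a ubiquitin ligase gene that restrains NIK and is itself an NF-κB target, was 11.7 and 10.6 FPKM against 1.29 and 1.75 FPKM (−2.28, SE 0.18, limma adjusted p = 0.00418). TRAF2, its adaptor, differed by 1.38 and IKBKB, the catalytic IKK kinase of the classical route, by −1.32, and both passed. BIRC3 was 7.61 and 7.01 FPKM in the Jeko and Rec-1-labelled controls.

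Receptors moved in both directions. Of 14 listed, 9 were tested, of which 1 was higher and 4 lower (median −0.64), where 12.8% and 13% of all tested genes were. TNFRSF1A, the first TNF receptor, was 0.745 and 0.832 FPKM in the Jeko sgRNA libraries and 22.0 and 15.4 FPKM in those labelled Rec-1 sgRNA (3.44, SE 0.22, limma adjusted p = 0.00274). TNFRSF1B, the second TNF receptor, was 30.6 and 26.3 FPKM against 2.27 and 2.38 FPKM (−3.14, SE 0.17, limma adjusted p = 0.00198). TNFRSF11A, the receptor RANK, and TNFRSF17, the receptor BCMA of plasma-stage cells, differed by −1.70 and −1.69 and passed. The control libraries had 1.34 and 0.851 FPKM of TNFRSF1A and 21.0 and 15.2 FPKM of TNFRSF1B, on the Jeko side in both cases. TNFRSF1A reached a mean of 1 FPKM only through the Rec-1-labelled sgRNA libraries, so only a higher value there could enter the test.

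Of 15 other inhibitors and atypical IκB proteins, 14 were measured and 13 tested. PDLIM2, whose product promotes RELA breakdown in the nucleus, was higher (2.03, SE 0.13), and OTUD7B, a deubiquitinase gene of the alternative route (−1.47, SE 0.15), and BCL3, an atypical IκB (−1.05, SE 0.19), were lower, with a list median of −0.11. Among 11 genes listed as substrates of the MALT1 protease, 3 were lower and 0 higher, where 25.9% of all tested genes passed in either direction. The 3 were TNFAIP3 and MAP3K14, given above, and LIMA1, an actin-binding protein gene (−1.08, SE 0.18). Whether MALT1 cleaves the listed products in these cells was not tested. The list also does not separate products cleaved by normal MALT1 from those cleaved only by MALT1 fusion proteins. Of 17 NF-κB target genes that encode no cytokine, 14 were tested, with 4 higher and 5 lower and a median of −0.26. The higher ones included BCL2A1, a survival gene of the BCL2 family, at 0 and 0.0513 FPKM in the Jeko sgRNA libraries and 4.42 and 6.32 FPKM in those labelled Rec-1 sgRNA (2.62, SE 0.20, limma adjusted p = 0.00387). TNFAIP2 (2.32, SE 0.22) and TRAF1 (1.95, SE 0.17) were higher as well, and BIRC3 was among the lower. Known targets of NF-κB stood on both sides of 0. BCL2A1, TNFAIP2, TRAF1 and PDLIM2, however, were at or under 0.148 FPKM in the Jeko libraries and the Rec-1-labelled control. They reached a mean of 1 FPKM only through the Rec-1-labelled sgRNA libraries, so only a higher value there could enter the test. The counts and medians of their lists include them, so the split into higher and lower targets cannot be read as a result. In Jeko against its control limma called 0 of the 63 tested genes of these 5 lists, where 0.439% of all tested genes passed. At an unadjusted p under 0.05 there were 6 of the 63 and 1287 of the 11400.

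MALT1 was looked at beside its neighbours on chromosome 18. The genes whose profiles over the 6 libraries lay nearest to it were CEP112, VPS4B and ZNF532, with root-mean-square distances of 0.107, 0.121 and 0.130 on the log2 scale after centring. CEP112, the nearest, lies on chromosome 17 (63631655 to 64188251). ZNF532 (56529832 to 56653712) and VPS4B (61056423 to 61089716) lie on chromosome 18 within 5 Mb of MALT1. Of the 20 tested protein-coding neighbours within 5 Mb, a window chosen after seeing these names, 9 were lower and 2 higher at a limma adjusted p under 0.05 in the Rec-1-labelled sgRNA libraries than in the Jeko sgRNA libraries. That is 45.0% lower, against 13.4% of all tested protein-coding genes with a position. The median difference of the 20 neighbours was −1.28, against −0.47 over 127 genes of chromosome 18 and −0.06 over all. Both this share and this median include ZNF532 and VPS4B, which prompted the window through their likeness to MALT1. ZNF532 was 22.6 and 28.7 FPKM in the Jeko sgRNA libraries and 3.17 and 5.42 FPKM in those labelled Rec-1 sgRNA (−2.35, SE 0.29). VPS4B, a gene of membrane scission, was 51.5 and 71.2 FPKM against 12.9 and 17.1 FPKM (−1.96, SE 0.26). TXNL1 and NEDD4L, also in the window, differed by 1.32 and 1.49 in the other direction.

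**Figure D5:**
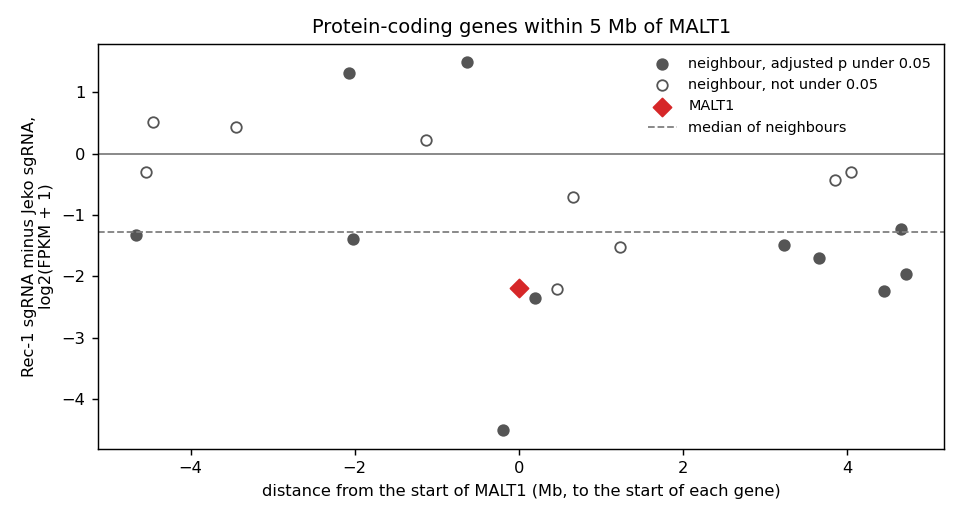
Log2(FPKM + 1) difference between the Rec-1-labelled sgRNA libraries and the Jeko sgRNA libraries for the 20 tested protein-coding genes within 5 Mb of MALT1, against distance in Mb. Most points lie below 0, the dashed median is at −1.28, and MALT1 (diamond) is at −2.19.

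Around the other 9 genes the neighbours' median differences ran from −0.29 (115 genes around MAP3K14) to 0.18 (20 genes around BCL10). The share called lower ran from 3.8% (NFKB1) to 20.0% (BCL10), against 13.4% of all tested protein-coding genes with a position. The share called higher ran from 3.6% (NFKBIA) to 33.3% (TNFAIP3), with 30.0% at BCL10, against 12.5%. Of the 28 neighbours of NFKBIA 0 had a difference as low as its own, and of the 18 neighbours of TNFAIP3 and the 63 of NFKB2 there was 1 each. The profiles nearest to BCL10 were those of CDKN2AIPNL, KXD1 and LOC102724827, at distances of 0.0275, 0.0432 and 0.0486, and the first 2 lie on chromosomes 5 and 19.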

How the data were processed

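Total RNA of 6 libraries was sequenced after library preparation with an Illumina TruSeq RNA kit, per the labels' protocols. The authors deposited 1 table of FPKM values with a column per library, per the file headers, which call the sgRNA libraries KO. TopHat and hg19 are named in the submitters' processing notes. The program that computed FPKM and the annotation are not given in the sources used here. FPKM sums ran from 905778 to 1160110. From values under 0.05 FPKM shared with the Jeko control, relative depth was between 0.687 and 1.10, and could not be found for Rec-1 sgRNA 1 (commonest ratio in 0.712% of genes). The depth itself is unknown, and no counting error can be attached.

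The values were taken as log2(FPKM + 1), which understates changes of low genes, for the 11400 genes averaging 1 FPKM or more. limma 3.58.1 in R 4.3.3 (lmFit, eBayes with trend) fitted 4 group means, and line plus sgRNA for both lines together, with Benjamini-Hochberg adjustment over all tested genes and a threshold of 0.05. The fit was tested on simulated data. Positions and transcript lengths are from GENCODE on GRCh37, the build hg19 names. Python 3.11.15, numpy 2.4.6, pandas 2.3.3 and matplotlib 3.10.9 did the rest. The members, lists and tests were chosen with earlier results of these data known. Named are all members, NR4A1, and from each list up to 4 genes with the largest difference among those that passed between the lines. Also named are the 3 nearest profiles of BCL10 and MALT1 and, chosen after their values were seen, STAT5A, TXNL1 and NEDD4L.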

Additional observations from a re-analysis of the deposited data

Results flagged for a closer look

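By limma's interaction test the sgRNA effect differed between the Jeko and the Rec-1-labelled libraries at 2 of the 10 genes. TNFAIP3 was at −3.15 (SE 0.38, limma adjusted p = 0.0252). MAP3K14, at −2.15 (SE 0.25, limma adjusted p = 0.0243), was higher with both guides in Jeko and lower with both in the libraries labelled Rec-1. MALT1 at −2.09 (SE 0.48, limma adjusted p = 0.103) and NFKB1 at −0.51 (SE 0.29, limma adjusted p = 0.392) also went in opposite directions, without passing. NR4A1 itself went down in Jeko and up in the libraries labelled Rec-1, at 1.09 (SE 0.69, limma adjusted p = 0.438). Each of these values takes the library labelled Rec-1 control as its base.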

How the results depend on the processing

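Of the limma counts over all tested genes, that between the sgRNA libraries of the lines was 2947 and became 1549 among genes averaging 5 FPKM or more, and between 803 (without Rec-1 sgRNA 1) and 2940 when a library was left out. For Jeko against its control the count of 50 became 3 with protein-coding genes only, an alternative chosen after seeing the data, and ran from 41 to 51 with a library left out. For Rec-1-labelled libraries against their control 2184 became 1083 at 5 FPKM and ran from 657 to 2180. The difference between the effects, 791, became 318 at 5 FPKM and ran from 75 to 454. Over both lines 28 became 12 without a filter, 17 with transcript length adjusted and 0 with protein-coding genes only (2169 at an unadjusted p under 0.05), and ran from 11 to 2180, the last without the Jeko control and 51 without the Rec-1-labelled control. The cause of these shifts was not tested, other than fewer genes or libraries by construction.

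Guide numbers were taken as a pairing of libraries across lines in a fit with a replicate block, where the correlation of the guides' deviations in Jeko and Rec-1 was 0.0998 for the full set of genes and 0.214 for protein-coding ones. The counts were then 2643 between lines, 428 for the difference between effects and 9 over both lines.

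Sign changes were limited to differences that had not passed, and the cause was not tested. Between the lines BCL10 (−0.0045) was 0.0428 with length adjusted, and −0.0679 to 0.0589 with a library left out (0.00932 without Jeko sgRNA 2), and RELA ran from −0.207 to 0.0812. In Jeko TNFAIP3 ran from −0.278 to 0.171, and in Rec-1-labelled libraries RELA from −0.0004023 to 0.287. For the difference between effects BCL10 ran from −0.018 to 0.109 and RELA from −0.247 to 0.0405. Over both lines MALT1 ran from −1.62 to 0.468, MAP3K14 from −1.67 to 0.485 and NFKB1 from −0.0991 to 0.407, the ends being the fits without either control. The NR4A1 mean difference ran from −0.439 (without the Rec-1-labelled control) to 0.648 (without the Jeko control), and was −0.158 without Rec-1 sgRNA 1. Contrasts against a control that is left out cannot be made. The fit of 4 group means has 2 residual degrees of freedom, also without a control, and 1 without an sgRNA library, and the fit over both lines has 3.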
